A study of Danio rerio with 24 samples.

Results

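Of the 25432 genes measured, 8 that mark the phagocytes of the innate immune system were followed in whole zebrafish embryos. They were found by their gene symbols, and all 8 were matched: the neutrophil genes mpx and lyz, the macrophage genes mpeg1.1, marco and csf1ra, and the leukocyte genes spi1b, coro1a and lcp1, which both cell types use. The series tested CRISPR-Q, a heat-inducible system in which the QFvpr driver stands behind the hsp70l heat-shock promoter and a guide RNA directs either knockdown (CRISPR-QKD) or activation (CRISPR-Qa) of a gene. RNA was sequenced from 4 lines, each with 3 libraries of 3TG embryos, which carried the CRISPR-Q components and a guide RNA, and 3 libraries of 2TG embryos, the controls of that line, which carried the components without a guide. The 3TG guides were a gRNA against smn1, a gRNA array against tardbp and tardbpl, sgRNAs for the activation of lin28a and sgRNAs for the activation of sox9b. Embryos of all 8 groups were raised at 28.5 °C, were heat-treated for 1 h at 2 and again at 3 days post fertilisation (dpf) and were collected at 4 dpf, so the 2TG embryos carried the driver and had the heat treatment too. A library is named below by its line, its group and its replicate number (lin28a 3TG 2 is the second 3TG library of the lin28a line).

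Neutrophils and macrophages are the first white blood cells of the zebrafish embryo, and both reach wounds and infected sites within hours. Neutrophils carry preformed granules of peroxidase, lysozyme and proteases, while macrophages engulf cells and microbes, display scavenger and growth factor receptors, and include the tissue-resident microglia. Both arise from precursors that use the transcription factor Pu.1, the product of spi1b, and both share an actin cytoskeleton rich in coronin and plastin. Adaptive lymphocytes are only beginning to appear in the thymus at this stage, so the phagocytes are the main working leukocytes of these embryos.

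The values were in TPM, transcript levels per unit of transcript length scaled to one fixed total per library, in a separate table for each of the 4 lines. The tables hold no read counts, so sequencing depth is unknown and no counting error can be given. All 8 genes were above 0 in all 24 libraries and passed the low-value filter in every line (3 or more of the 6 libraries at 1 TPM or above). The listed TPM of each targeted gene separated its own groups. TPM of smn1 were 13.0, 17.3 and 15.9 in the smn1 3TG libraries, against 27.9, 24.6 and 26.4 in smn1 2TG. In the tardbp line, tardbp lay between 48.3 and 80.1 TPM in 3TG and between 109 and 146 TPM in 2TG, and tardbpl between 76.7 and 121 TPM in 3TG and between 180.2 and 216 TPM in 2TG; the lowest value of both genes is that of tardbp 3TG 3, the diluted library described next. In the lin28a line, lin28a lay between 2.69 and 8.41 TPM in 3TG and between 0.310 and 1.23 TPM in 2TG, and in the sox9b line, sox9b lay between 31.5 and 39.7 TPM in 3TG and between 17.1 and 18.4 TPM in 2TG. A pair of libraries stood apart from the rest. In tardbp 3TG 3, 3 transcripts (zgc:158463, FO704772.3 and AL935186.10) took 34.3% of all TPM, against 0.109% to 1.29% in the other 23 libraries, which lowers the listed TPM of the other genes, and 78.3% of the genes tested had their lowest value of the tardbp line in that library. With those transcripts left out and all libraries brought to one total, tardbp in it came to 111 TPM, inside the 2TG range of 110.1 to 148 TPM so treated, and tardbpl to 176 TPM, below the lowest 2TG value of 184 TPM. In lin28a 3TG 2, inflammation and heat-shock genes were far above the other libraries, as described below.

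Compared per transcript length, lyz was the most abundant of the 8 genes, at 44.2 TPM in the lowest library, a median of 87.3 and 412 TPM in the highest, and only 4.59% of all genes had a higher median level. It was followed by lcp1 at a median of 16.7 TPM, coro1a at 13.3, mpx at 10.4, csf1ra at 8.20, mpeg1.1 at 5.35, marco at 3.04 and spi1b at 2.56 TPM. The first step in this order held in all 24 libraries, where lyz was above lcp1. Of the neighbouring pairs, coro1a exceeded mpx in 23 libraries, lcp1 exceeded coro1a in 22, and mpeg1.1 exceeded marco in 20. The pairs mpx and csf1ra, and csf1ra and mpeg1.1, kept their order in 19 libraries each, and marco was above spi1b in 16. Each of these 6 steps below lyz was reversed in at least 1 library. The highest library held 13.1 times the TPM of the lowest for mpx and 9.33 times for lyz, whereas the other members spanned 3.30 times (coro1a) to 6.86 times (spi1b). These spans rest on single libraries: without lin28a 3TG 2 and tardbp 3TG 3 the span was 3.03 times for mpx, 8.47 for lyz, 4.64 for mpeg1.1 and 4.41 for spi1b, and without smn1 3TG 3 as well it was 4.34 times for lyz. The lowest library was tardbp 3TG 3 for 7 of the 8 genes; for csf1ra it was tardbp 2TG 1. Levels are set side by side across tables that were processed separately, so differences between lines in level are a description. In bulk RNA of whole embryos, fewer cells of a type and less RNA per cell cannot be told apart.

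**Figure D1:**
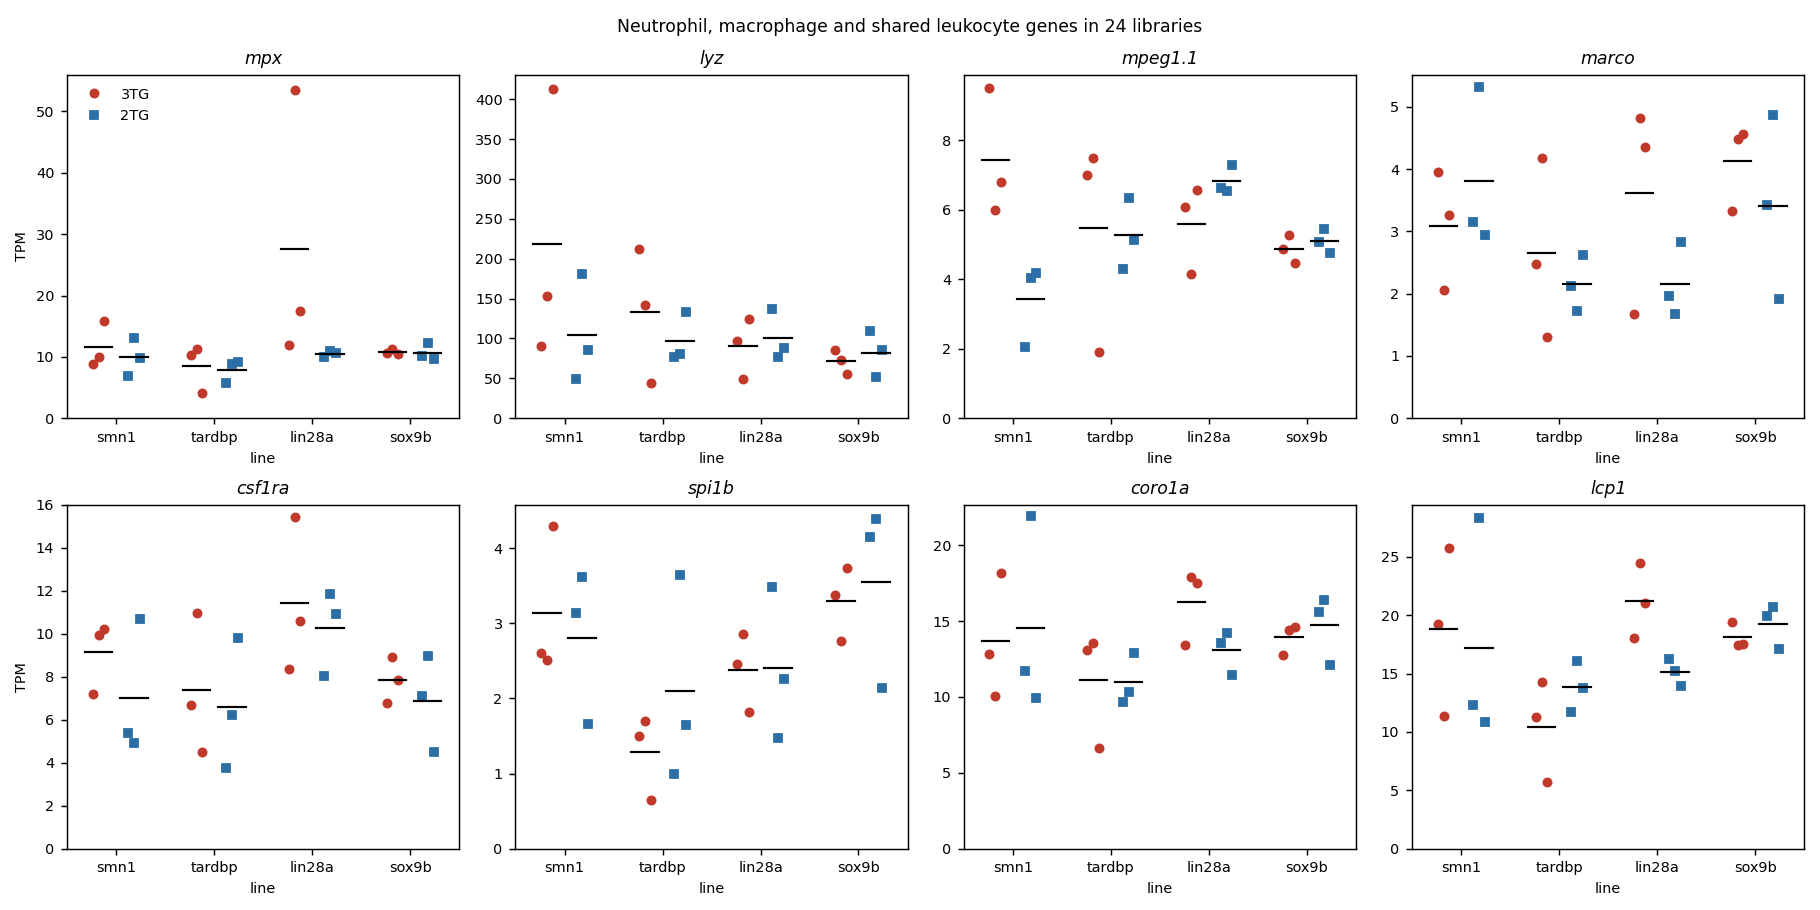
TPM (linear axis from 0) of each of the 8 genes in the 24 libraries, by line on the horizontal axis; red circles are the 3TG libraries, blue squares the 2TG libraries (3 each, replicates 1 to 3 from left to right) and black lines the group means. The mpx value of 53.5 TPM in lin28a 3TG 2 and the lyz value of 412 TPM in smn1 3TG 3 stand above all others, and mpeg1.1 in the smn1 line and mpx and lcp1 in the lin28a line are the groups that do not overlap.

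The neutrophil gene mpx encodes myeloid-specific peroxidase, the granule enzyme that makes hypochlorous acid. In lin28a embryos, mpx was at 12, 53.5 and 17.4 TPM in 3TG libraries, against 10.0, 11.0 and 10.6 TPM in 2TG libraries. The 3TG libraries were all above the 2TG libraries, but 1 of them, lin28a 3TG 2, was 4.87 times the median of the other 5 libraries of the line. The difference, 3TG minus 2TG, was 1.03 on the log2(TPM + 1) scale (SE 0.471, 95% interval −0.05 to 2.11), a scale that understates the change of genes near 1 TPM. It did not pass the test (limma, Benjamini-Hochberg adjusted p = 0.980), and without lin28a 3TG 2 it was 0.42. Among the 19580 genes tested in this line, the share called at an adjusted p under 0.05 was 0%, the share at an unadjusted p under 0.05 was 1.78%, and 6.56% had groups that do not overlap (2.5% with 3TG above 2TG and 4.06% with 3TG below). Of the 8 members, mpx and lcp1 had groups that do not overlap, both with 3TG above.

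In the other lines the groups overlapped for mpx. Its TPM were 8.80, 10.0 and 15.8 in smn1 3TG, against 6.96, 13.0 and 9.88 in smn1 2TG, a log2 difference of 0.19 (SE 0.293, adjusted p = 0.780 by limma). In the tardbp line they were 10.3, 11.2 and 4.08 in 3TG, against 5.74, 8.82 and 9.13 in 2TG, with the lowest value in tardbp 3TG 3. The log2 difference there was 0.02 (95% interval −0.91 to 0.96). In the sox9b line the libraries lay closest together, at 10.7, 11.3 and 10.5 TPM in 3TG and 10.1, 12.3 and 9.68 TPM in 2TG. That difference was also 0.02 (95% interval −0.33 to 0.38), and it turned to −0.06 with median centring or quantile normalisation. The sox9b interval is the narrowest of the 4 for this gene.

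Lysozyme C, the product of lyz, breaks bacterial cell walls, and its promoter is widely used to label zebrafish neutrophils. In the smn1 line lyz was at 90.3, 153 and 412 TPM in 3TG, against 48.7, 181 and 85.4 TPM in 2TG, so the groups overlapped while 1 library, smn1 3TG 3, was far above the rest. The means were 219 ± 171 TPM in 3TG and 105 ± 68.0 TPM in 2TG (SD, n = 3 each). The log2 difference of 0.97 (SE 0.606, 95% interval −0.42 to 2.36) did not pass the test (adjusted p = 0.505, limma). It was 0.37 without smn1 3TG 3 and 1.46 without either smn1 3TG 1 or smn1 2TG 2. Among the 19660 genes tested in the smn1 line, 0% were called and 12.3% had an unadjusted p under 0.05, which for the members was 1 gene, mpeg1.1.

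The tardbp line gave lyz values of 212, 142 and 44.2 TPM in 3TG, against 76.4, 80.2 and 133 TPM in 2TG. Here 2 of the 3TG libraries were above all 2TG libraries and tardbp 3TG 3 was below them. The log2 difference was 0.23 (SE 0.507, adjusted p = 0.805 by limma) and without tardbp 3TG 3 it was 0.88 (adjusted p = 0.199), while without tardbp 3TG 1 it turned to −0.23. When the 3 abundant transcripts were left out and the libraries brought to one total, lyz in tardbp 3TG 3 came to 101 TPM and mpx to 9.36 TPM, both within the 2TG range or just above it. For the lin28a line lyz was at 97.4, 49.1 and 124 TPM in 3TG, against 137, 76.7 and 88.4 TPM in 2TG; in the sox9b line it was at 86.1, 72.9 and 56.0 TPM in 3TG, against 109, 51.6 and 85.7 TPM in 2TG. The groups overlapped in both, with log2 differences of −0.21 (SE 0.363) and −0.15 (SE 0.273).

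Among the macrophage genes, mpeg1.1 encodes perforin-2, a pore-forming protein of the phagosome, and gives the standard macrophage promoter of zebrafish work. It had the clearest separation of any member: TPM in the smn1 line were 9.50, 5.99 and 6.79 in 3TG, against 2.05, 4.04 and 4.18 in 2TG. All 3TG libraries were above all 2TG libraries, as for 7.96% of the genes tested in that line, where 11.2% had them below and 19.2% in all had groups that do not overlap. The means were 7.43 ± 1.84 TPM in 3TG and 3.42 ± 1.19 TPM in 2TG (SD, n = 3 each), and the log2 difference was 0.95 (SE 0.285, 95% interval 0.29 to 1.60; unadjusted p = 0.0100). It did not pass the test over all genes (adjusted p = 0.351, limma; lowest value 0.246 under any alternative). As a description across lines, the smn1 2TG mean was below those of tardbp 2TG (5.26 TPM), lin28a 2TG (6.81 TPM) and sox9b 2TG (5.08 TPM). In smn1 2TG 1, mpx, lyz and 14 of 31 other macrophage genes were also lowest of the line, beside 17.4% of all genes. The mpeg1.1 difference of the smn1 line was positive whichever library was left out, between 0.70 and 1.08. The heat-shock gene hsp70l separated the same groups the other way, at 7.37, 11.2 and 27.9 TPM in smn1 3TG, against 232, 231 and 318 TPM in smn1 2TG; its part in the mpeg1.1 difference was not tested.

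The values of mpeg1.1 were 6.99, 7.50 and 1.89 TPM in tardbp 3TG, against 4.29, 6.35 and 5.13 TPM in tardbp 2TG, where tardbp 3TG 3 was lowest and the 2 other 3TG libraries were highest. The log2 difference was −0.09 (SE 0.465) as listed and 0.35 with median centring, so its direction depends on the scaling. Within the lin28a line mpeg1.1 was at 6.07, 4.15 and 6.57 TPM in 3TG, against 6.62, 6.52 and 7.29 TPM in 2TG, with lin28a 3TG 2 lowest and a log2 difference of −0.26 (SE 0.236, 95% interval −0.80 to 0.28). In the sox9b line it was at 4.86, 5.27 and 4.45 TPM in 3TG, against 5.08, 5.43 and 4.74 TPM in 2TG, a difference of −0.05 (SE 0.166). Neither of these groups separated. Its paralog mpeg1.2 may share reads with it, and how the counting divided such reads is not given in the sources used here. In the smn1 line mpeg1.2 was at 23.7, 9.74 and 16.3 TPM in 3TG, against 9.15, 14.6 and 23.6 TPM in 2TG, so the separation of mpeg1.1 was not seen in mpeg1.2.

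The scavenger receptor Marco binds bacteria on the macrophage surface. Its gene was at 3.96, 2.06 and 3.27 TPM in smn1 3TG, against 3.14, 5.32 and 2.94 TPM in smn1 2TG, and at 2.49, 4.17 and 1.3 TPM in tardbp 3TG, against 2.13, 1.73 and 2.62 TPM in tardbp 2TG. The lin28a line had marco at 1.67, 4.82 and 4.36 TPM in 3TG, against 1.96, 1.67 and 2.82 TPM in 2TG. In the sox9b line it was at 3.32, 4.49 and 4.57 TPM in 3TG, against 3.43, 4.88 and 1.92 TPM in 2TG. The groups overlapped in all 4 lines. The log2 differences ran from −0.23 in the smn1 line (SE 0.290) to 0.49 in the lin28a line (SE 0.345). In the smn1 line, where the difference of mpeg1.1 was largest, marco and mpeg1.1 thus had opposite signs.

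The receptor gene csf1ra encodes the receptor for Csf1 and Il34, which macrophages need to survive and to colonise tissues; yellow pigment cells, the xanthophores, also express and need it. TPM of csf1ra were 7.21, 9.96 and 10.2 in smn1 3TG, against 5.40, 4.91 and 10.7 in smn1 2TG, and 6.70, 11.0 and 4.49 in tardbp 3TG, against 3.74, 6.21 and 9.82 in tardbp 2TG. They were 8.35, 15.4 and 10.6 in lin28a 3TG, against 8.06, 11.9 and 10.9 in lin28a 2TG, and 6.79, 8.92 and 7.84 in sox9b 3TG, against 7.08, 8.98 and 4.49 in sox9b 2TG. The groups overlapped in every line, and the log2 differences were all positive, from 0.12 (lin28a, SE 0.275) to 0.40 (smn1, SE 0.300, adjusted p = 0.566 by limma). The summed TPM of 12 xanthophore genes lay between 170 and 247 in smn1 3TG and between 133 and 206 in smn1 2TG; in the tardbp line it lay between 75.8 and 208 in 3TG and between 211 and 244 in 2TG. The sum was 171 to 191 in 3TG and 189.8 to 222 in 2TG of the lin28a line, and in the sox9b line 209.7 to 252 in 3TG and 180.2 to 241 in 2TG. The part of xanthophores in the csf1ra values was not tested.

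Of the shared genes, spi1b encodes Pu.1, the transcription factor that commits precursors to the myeloid fate. It was the scarcest member, at 2.60, 2.51 and 4.30 TPM in smn1 3TG, against 3.14, 3.62 and 1.66 TPM in smn1 2TG, and at 1.50, 1.71 and 0.640 TPM in tardbp 3TG, against 0.995, 3.64 and 1.65 TPM in tardbp 2TG. The lin28a libraries had spi1b at 2.46, 2.86 and 1.82 TPM in 3TG, against 3.49, 1.48 and 2.26 TPM in 2TG. In the sox9b line it was at 3.39, 2.76 and 3.75 TPM in 3TG, against 4.15, 4.39 and 2.13 TPM in 2TG. The groups overlapped in every line, and only 4 of the 12 3TG libraries were above the 2TG mean of their line, the fewest of the 8 genes. Its log2 differences ran from −0.38 in the tardbp line (SE 0.433, turning to 0.06 with median centring) to 0.13 in the smn1 line (SE 0.300).

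Coronin 1A, from coro1a, binds actin in all leukocytes, and L-plastin, from lcp1, bundles it. TPM of coro1a were 12.9, 10.1 and 18.1 in smn1 3TG, against 11.7, 21.9 and 9.96 in smn1 2TG, and 13.1, 13.6 and 6.65 in tardbp 3TG, against 9.66, 10.3 and 12.9 in tardbp 2TG. They were 13.4, 17.9 and 17.5 in lin28a 3TG, against 13.6, 14.2 and 11.4 in lin28a 2TG, and 12.8, 14.4 and 14.6 in sox9b 3TG, against 15.6, 16.4 and 12.1 in sox9b 2TG. The groups overlapped in all 4 lines, with log2 differences from −0.06 in the sox9b line (SE 0.161) to 0.29 in the lin28a line (SE 0.218). TPM of lcp1 were 19.3, 11.4 and 25.8 in smn1 3TG, against 12.3, 28.3 and 10.8 in smn1 2TG, and 11.2, 14.2 and 5.72 in tardbp 3TG, against 11.7, 16.0 and 13.8 in tardbp 2TG. The tardbp difference of lcp1 was −0.45 (SE 0.425), the same as the median of all genes in that line, and it turned to 0.02 with quantile normalisation. Within the lin28a line lcp1 was at 18.0, 24.5 and 21.0 TPM in 3TG, against 16.3, 15.2 and 13.9 TPM in 2TG. There all 3TG libraries were above all 2TG libraries, by 0.45 on the log2 scale (SE 0.210, 95% interval −0.03 to 0.93), with an adjusted p of 0.980 by limma. Without lin28a 3TG 2 the difference of lcp1 was 0.35. In the sox9b line lcp1 was at 19.4, 17.5 and 17.5 TPM in 3TG, against 19.9, 20.7 and 17.1 TPM in 2TG, a difference of −0.08 (SE 0.138).

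Taking each line as a whole, 0 of the 8 members were called in any line by limma, and the unadjusted p was under 0.05 for 1 member in the smn1 line and for 0 in the others. For all genes tested, the share called in the tardbp line was 0.0103% and the share with an unadjusted p under 0.05 was 13.7%; in the sox9b line these shares were 0% and 1.22%. No member's groups were separate in the tardbp line, where 29.1% of genes had all 3TG libraries below all 2TG libraries and 0.176% had them above, nor in the sox9b line, where the shares were 1.15% below and 3.6% above (29.2% and 4.75% in either direction). The median log2 difference of all genes in the tardbp line was −0.45, and that of the 8 members was −0.0038, with 4 positive and 4 negative. The members' median was thus above that of all genes there, while 4 members turned sign under at least 1 other scaling (mpeg1.1, spi1b, coro1a and lcp1) and 7 of the 8 were lowest in tardbp 3TG 3. Without that library, over the same genes, the members' median was 0.42 and that of all genes −0.16. The medians of the 8 members were 0.19 in the smn1 line, 0.20 in the lin28a line and −0.05 in the sox9b line, beside medians over all genes of −0.05, −0.05 and 0.07; the lin28a median of the members was also 0.20 without lin28a 3TG 2.

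**Figure D2:**
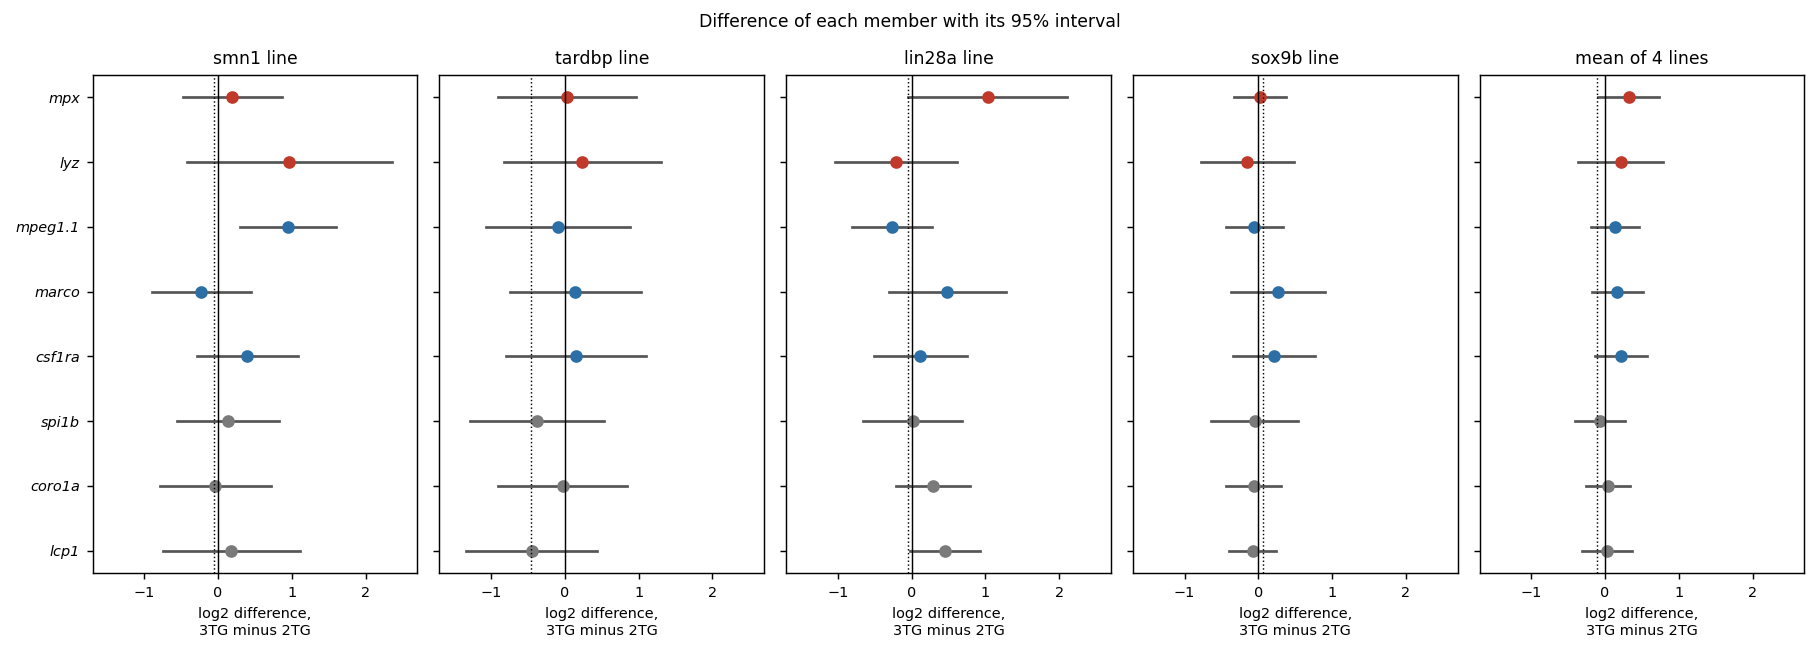
Log2(TPM + 1) difference, 3TG minus 2TG, of each gene in each line and as the mean of the 4 lines (points, with 95% intervals from limma); red marks neutrophil, blue macrophage and grey shared genes, the solid line is 0 and the dotted line the median of all genes tested. The mpeg1.1 interval in the smn1 line, 0.29 to 1.60, is the only one of the 40 that does not reach 0.

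The question of whether heat-driven CRISPR-Q with a guide shifted phagocyte genes in common was addressed by 1 fit over all 24 libraries. The mean difference over the 4 lines was largest for mpx, at 0.32 on the log2 scale (SE 0.196, 95% interval −0.09 to 0.73, adjusted p = 0.461 by limma), with 9 of the 12 3TG libraries above the 2TG mean of their line. With each library left out in turn, it lay between 0.17 (without lin28a 3TG 2) and 0.43. For csf1ra it was 0.22 (SE 0.170, 9 of 12 libraries), for lyz 0.21 (SE 0.276, 6 of 12), for marco 0.17 (7 of 12), for mpeg1.1 0.13 (6 of 12), for coro1a 0.04 (6 of 12), for lcp1 0.03 (7 of 12) and for spi1b −0.07 (4 of 12). The median of the 8 members was 0.15, with 7 positive, beside −0.10 for all genes tested. Without tardbp 3TG 3 the median of all genes was −0.03. Of the 8 members 0 were called and 0 had an unadjusted p under 0.05, beside 0% and 15.2% of the 21099 genes tested. The upper ends of the 95% intervals were 0.73 for mpx and 0.78 for lyz. Shared increases up to that size are thus not excluded for these genes.

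Whether the lines differed was tested directly. The 3TG minus 2TG difference of mpeg1.1 was larger in the smn1 line than in the lin28a line by 1.21 (SE 0.449, 95% interval 0.28 to 2.14, unadjusted p = 0.0132), larger than in the tardbp line by 1.04 (unadjusted p = 0.0299) and larger than in the sox9b line by 1.00 (unadjusted p = 0.0360). The adjusted p values by limma were 0.663, 0.440 and 0.999, so none passed. Leaving out tardbp 3TG 3 brought the excess over the tardbp line to 0.54. At an unadjusted p under 0.05, these contrasts held 7.41%, 10.6% and 3.37% of all genes. For mpx the lin28a line exceeded the sox9b line by 1.01 (unadjusted p = 0.0836), or by 0.40 without lin28a 3TG 2, and 0 members were under 0.05 in that contrast, where the share of all genes was 0.991%, in tardbp minus lin28a (19.2%) or in tardbp minus sox9b (20.8%). No member was called in any of the 6 contrasts, in each of which 0% of all genes were called.

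To set neutrophil against macrophage genes, the mean log2(TPM + 1) of mpeg1.1, marco and csf1ra was subtracted from that of mpx and lyz in each library. This difference had a median of 2.44 over the 24 libraries and ran from 1.87 to 3.53. It was 2.75 ± 0.772 in smn1 3TG and 2.55 ± 0.513 in smn1 2TG, 2.53 ± 0.445 in tardbp 3TG and 2.47 ± 0.0857 in tardbp 2TG (SD, n = 3 each). It was 2.68 ± 0.0503 in lin28a 3TG and 2.38 ± 0.303 in lin28a 2TG, and 2.18 ± 0.242 in sox9b 3TG and 2.39 ± 0.460 in sox9b 2TG (SD, n = 3 each). In every line the groups overlapped and the difference between the means, −0.20 to 0.30, was below the larger SD of the pair. The ratio of summed lyz and mpx TPM to summed mpeg1.1 and marco TPM was 6.20 at its lowest, 13.0 at the median and 42.6 in smn1 3TG 3, the library with the highest lyz.

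The neutrophil pair did not move as one. The ratio of lyz to mpx TPM was 0.916 in lin28a 3TG 2 and between 4.2 and 26.0 in the other 23 libraries, because in that library mpx was the highest and lyz the lowest of its line. The ratio of mpx to mpeg1.1 was 12.9 there and at most 3.40 elsewhere. In the smn1 line the ratio of mpx to mpeg1.1 was 0.926, 1.67 and 2.33 in 3TG, against 3.40, 3.22 and 2.36 in 2TG, so the 3TG libraries were all lower, the closest pair by little. This ratio was singled out after its values were seen and was given no test.

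**Figure D3:**
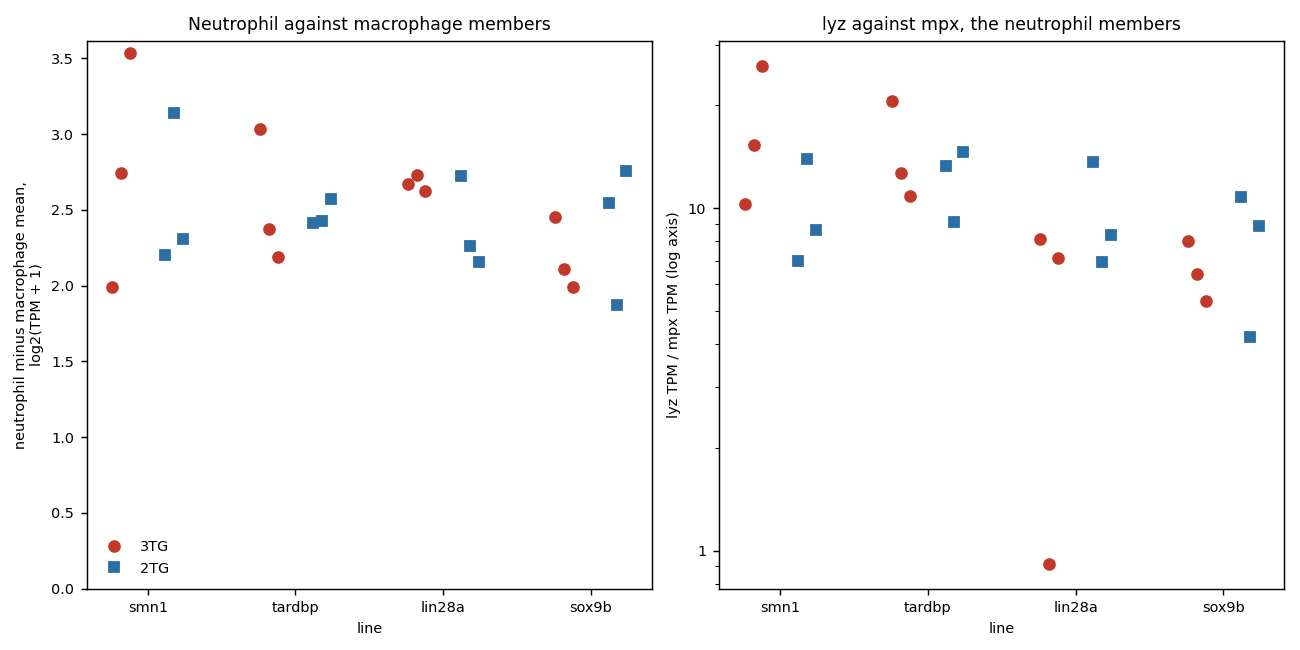
Left, the neutrophil minus macrophage mean of log2(TPM + 1), and right, the ratio of lyz to mpx TPM (log axis), in each library by line; red circles are 3TG and blue squares 2TG libraries. The groups overlap in every line on the left, and on the right lin28a 3TG 2 lies alone at 0.916.

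The library lin28a 3TG 2 was described gene by gene because it carries the mpx result. Its mpx of 53.5 TPM stood against 10.0 to 17.4 TPM in the other 5 libraries of the line, the 220th largest excess of 19580 genes. Its lyz of 49.1 TPM was below the other 5 (76.7 to 137 TPM), as was its mpeg1.1 of 4.15 TPM (6.07 to 7.29 TPM). Of the 8 members, 5 (mpx, marco, csf1ra, coro1a and lcp1) were highest of the line there and 2 were lowest, beside 26.7% and 35.4% of all genes. Other neutrophil genes were not all high there. The gene lect2l, which encodes a chemotactic factor, was at 237 TPM against 18.1 to 24.7 in the other 5 libraries, and ncf1, a subunit of the NADPH oxidase, at 18.1 TPM against 2.08 to 3.75. The granule protease gene npsn was at 17.9 TPM, inside the range of 17.1 to 33.5 TPM in the rest of the line. Other macrophage genes went both ways there. Of 29 tested, 12 were highest of the line and 7 lowest, beside 26.7% and 35.4% of all genes. The gene mpeg1.2 was at 27.4 TPM against 4.63 to 10.5 TPM. Also high were acod1, at 15.3 TPM against 0.491 to 1.12 TPM, and mfap4, at 14.7 TPM against 4.76 to 11.3 TPM. By contrast, grn1 was at 20.7 TPM against 24.9 to 45.8 TPM, and slc7a7 at 8.62 TPM against 13.7 to 21.0 TPM. Likewise lgals3bpb was low, at 1.40 TPM against 4.12 to 5.92 TPM.

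In the same library the cytokine gene il1b was at 103 TPM against 0.330 to 2.47 TPM in the other 5 libraries of the line. The matrix protease gene mmp9 was at 255 TPM against 3.41 to 11.1 TPM, and csf3b, which encodes a granulocyte colony-stimulating factor, was at 24.2 TPM against at most 0.511 TPM. The heat-shock gene hsp70l was at 1137 TPM against 6.45 to 44.3 TPM, and the wound- and regeneration-responsive gene lepb at 166 TPM against at most 1.13 TPM. All 13 acute inflammation genes tested in the line were highest in lin28a 3TG 2. So were 13 of 19 other neutrophil genes, 12 of 29 other macrophage genes and 7 of 23 pan-leukocyte genes, beside 26.7% of all genes. Of the same lists, 2 neutrophil, 7 macrophage and 8 pan-leukocyte genes were lowest there, beside 35.4% of all genes. The neutrophil list itself holds mmp9 and cxcl8a (74.9 TPM against 0.422 to 5.18 TPM), so it is not separate from inflammation genes. The part of all these genes in the mpx result was not tested. The difference of mpx without that library, 0.42, is given above.

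In 3 further libraries il1b stood above the rest, though far below its level in lin28a 3TG 2. The next highest il1b values were 27.0 TPM in smn1 3TG 1, 26.8 TPM in smn1 2TG 3 and 12.3 TPM in tardbp 3TG 3, and the other 20 libraries were at or below 2.47 TPM. In these 3 libraries mmp9 was at 84.9, 118 and 17.5 TPM, while mpx was at 8.80, 9.88 and 4.08 TPM, which is below the median of 10.4 TPM over all libraries. The tardbp 3TG 3 value is lowered by the 3 abundant transcripts and by the unlisted part of that library. It came to 9.36 TPM after rescaling, just above the 5.82 to 9.30 TPM of tardbp 2TG so treated. The relation of il1b to mpx was not tested. Within the smn1 line the summed TPM of the acute inflammation genes lay between 69.0 and 308 in 3TG and between 87.2 and 336 in 2TG.

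**Figure D4:**
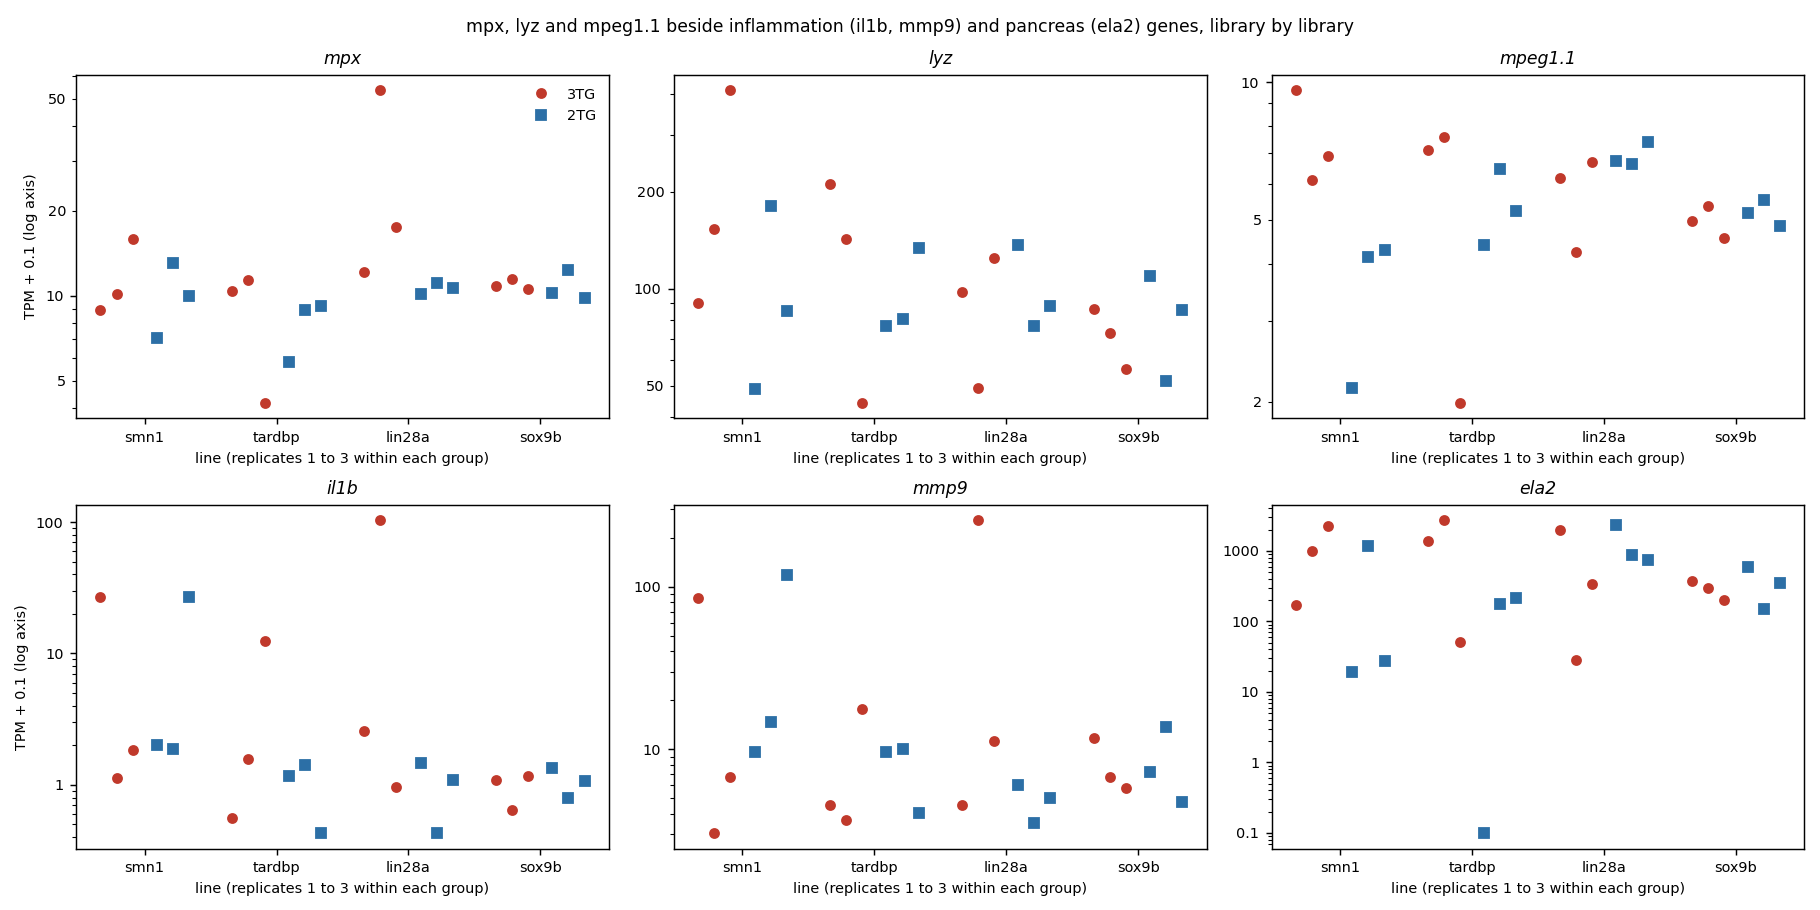
TPM + 0.1 (log axes) of mpx, lyz, mpeg1.1, the inflammation genes il1b and mmp9 and the pancreas gene ela2 in the 24 libraries, by line and replicate; red circles are 3TG and blue squares 2TG libraries. The lin28a 3TG 2 point is highest for mpx, il1b and mmp9 and is the lowest of its line for lyz, mpeg1.1 and ela2; in the smn1 line the library of highest lyz in each group is that of highest ela2.

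The levels of lyz and mpeg1.1 followed genes of the digestive organs from library to library. This was described by correlations over the 24 libraries of log2(TPM + 1) after subtracting each library's median and each line's mean; the values of a library share its embryos and its scaling, and no p is given. With 18 exocrine pancreas genes, a list drawn up after this pattern was seen, Pearson's r lay between 0.66 and 0.79 for lyz and between 0.49 and 0.66 for mpeg1.1. It lay between −0.18 and 0.12 for mpx, between −0.23 and −0.01 for marco, and between 0.06 and 0.39 for csf1ra, spi1b, coro1a and lcp1. Against ela2, an elastase of the pancreas, lyz had r = 0.74 (Spearman's rho 0.82), and 0.71 without the 2 libraries farthest from the median. With lin28a 3TG 2 and tardbp 3TG 3 left out, r with ela2 was 0.72 for lyz, 0.57 for mpeg1.1 and 0.53 for mpx. It was then 0.44 for csf1ra, 0.43 for spi1b, 0.49 for coro1a, 0.40 for lcp1 and 0.11 for marco. The low r of mpx thus rests on those 2 libraries.

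The pancreas genes themselves varied far more than the members. TPM of ela2 were 169, 990.5 and 2281 in smn1 3TG, against 19.2, 1188 and 27.6 in smn1 2TG, and the highest lyz value of each of these groups lay in its library of highest ela2, which was not so in tardbp 3TG or lin28a 3TG. For the tardbp line ela2 was at 1389, 2698 and 50.5 TPM in 3TG and was listed at 0, 176 and 214 TPM in 2TG. The summed TPM of the 18 genes lay between 2706 and 23678 in smn1 3TG and between 1049.6 and 13495 in smn1 2TG, and between 1057 and 29165 in tardbp 3TG and between 198 and 3683 in tardbp 2TG. In the lin28a line that sum was 682 to 19794 in 3TG, lowest in lin28a 3TG 2, and 9147 to 22712 in 2TG; in the sox9b line it was 2942 to 4352 in 3TG and 2396 to 6152 in 2TG. The part of digestive organ tissue in the lyz and mpeg1.1 differences was not tested.

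Among the members, r over the 24 libraries lay between −0.12 (mpeg1.1 and marco) and 0.81 (coro1a and lcp1), with a median of 0.25 over the 28 pairs and 8 pairs above 0.5. The coro1a and lcp1 pair kept r = 0.70 without its 2 farthest libraries. The neutrophil pair mpx and lyz had r = 0.17, which was 0.63 without lin28a 3TG 2 and tardbp 3TG 3. Among named genes, closer to mpx than any member were apbb1ip, tgfb1b, fbxo8 and ndrg1b (r = 0.84 each) and ptx3a (r = 0.82). For these 5 genes r was 0.52 to 0.69 without the 2 farthest libraries, and so rests in good part on them. Genes most like mpeg1.1 included slc7a7 (r = 0.83), zfpm2b, scin and cdaa (r = 0.82 each), and r for slc7a7 was 0.85 without the 2 farthest libraries. The genes most like lyz were star (r = 0.85) and krt1-19d (r = 0.84), and the one most like csf1ra was KIF1C (r = 0.91).

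In the wider lists of leukocyte genes no gene passed the test in the fit of its line. Of the other neutrophil genes, 0 were called by limma in any line; medians of the log2 difference were −0.08 in the smn1 line (21 genes tested), −0.27 in tardbp (20), 0.48 in lin28a (19) and −0.11 in sox9b (21). The lin28a median was 0.0854 without lin28a 3TG 2, over the same genes. An unadjusted p under 0.05 was found for 0 of them in the smn1, lin28a and sox9b lines and for 4 in the tardbp line: cpa5 and cxcl8a, with higher values in 3TG, and cebp1 and padi2, with lower ones. Of these, cpa5 is also in the list of exocrine pancreas genes and ran with ela2 (r = 0.98). The cxcl8a groups overlapped, at 3.05, 2.27 and 14.8 TPM in 3TG, against 0, 2.11 and 2.77 TPM in 2TG. The value of 14.8 TPM is that of tardbp 3TG 3. Levels of cebp1 were low, at most 2.37 TPM in the tardbp line. Of the other macrophage genes 0 were called either, with medians of 0.03 (31 tested), 0.0018 (30), 0.13 (29) and −0.03 (28) in the same order of lines. Of the pan-leukocyte genes 0 were called, with medians of −0.05 (23), −0.37 (22), −0.01 (23) and 0.04 (23). Medians over all genes tested were −0.05, −0.45, −0.05 and 0.07 in the same order. Without tardbp 3TG 3, over the same genes, the tardbp medians were −0.23 for neutrophil, 0.31 for macrophage and −0.08 for pan-leukocyte genes. That of all genes was then −0.16. An unadjusted p under 0.05 was found in the smn1, tardbp, lin28a and sox9b lines for 5, 1, 0 and 3 other macrophage genes and for 1, 2, 0 and 0 pan-leukocyte genes, beside 12.3%, 13.7%, 1.78% and 1.22% of all genes tested.

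The macrophage genes with an unadjusted p under 0.05 by limma in the smn1 line went in both directions. Of the 5 such genes of the wider list, 3 are given here. The galectin-binding glycoprotein gene lgals3bpb was at 4.26, 4.45 and 6.39 TPM in 3TG, against 1.48, 2.08 and 1.66 TPM in 2TG, a separation in the direction of mpeg1.1 with a log2 difference of 1.13 (SE 0.242, adjusted p = 0.256 by limma). The receptor gene csf1rb, the paralog of csf1ra, was at 1.97, 2.69 and 2.06 TPM in 3TG, against 0.216, 1.24 and 1.17 TPM in 2TG, a difference of 0.83 (SE 0.317, adjusted p = 0.375 by limma). These values lie near the low-value filter of 1 TPM. The lowest is that of smn1 2TG 1, where 14 of 31 other macrophage genes were lowest of the line, beside 17.4% of all genes. The other way round, mfap4 was at 5.49, 0.299 and 4.13 TPM in 3TG, against 6.03, 17.1 and 10.4 TPM in 2TG, a difference of −1.69 (SE 0.604, adjusted p = 0.365). This gene has several near copies, among which reads may be divided.

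In the tardbp line mfap4 was at 2.41, 3.52 and 2.73 TPM in 3TG, against 11.0, 7.10 and 14.2 TPM in 2TG. The groups were separate, and the log2 difference of −1.56 (SE 0.418) had an adjusted p of 0.329 by limma in the fit of that line and of 0.0415 in the fit over all 24 libraries. That second fit called 14.7% of all genes for this line. With median centring the difference was −1.12 (adjusted p = 0.482), beside the median of all genes of −0.45 without centring. Among the pan-leukocyte genes hcst, which encodes the adaptor DAP10 of lymphoid and myeloid receptors, was at 3.91, 4.18 and 4.30 TPM in smn1 3TG, against 15.4, 16.0 and 22.2 TPM in smn1 2TG. All 3TG libraries were below all 2TG libraries, as for 11.2% of the genes tested in that line. The difference was −1.86 (SE 0.212, adjusted p = 0.0741 by limma), above the threshold. Under alternatives the adjusted p by limma was 0.0695 with median centring and 0.188 with the replicate block. It was 0.355 in the fit over all 24 libraries (SE 0.475). The hsp70l levels of the same libraries are given with mpeg1.1, and their part in this difference was not tested. In lin28a 3TG 2 hcst was at 17.5 TPM, against 2.19 to 4.29 TPM in the other 5 libraries of that line.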

How the data were processed

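RNA of whole embryos from 24 libraries (4 lines, 3TG and 2TG, 3 libraries each) was analysed from TPM tables deposited by the authors, 1 per line; 13 further columns that carry no sample name were not used. The submitters' processing notes name Trimmomatic 0.39, STAR 2.7.10b and Salmon 1.10.1 and the builds GRCz11 and danRer11, without roles. The tables give gene identifiers with symbols; each member matched 1 row. Of the libraries, 10 are written with 6 decimals and 14 with 6 significant digits; what sets them apart is not given in the sources used here. In the smn1 line, within the 6-decimal libraries (1 3TG against 2 2TG) and the others (2 against 1), the log2 differences were 1.42 and 0.51 for mpeg1.1, −0.06 and 1.55 for lyz, −0.11 and 0.32 for mpx, and 0.42 and −0.08 for csf1ra. In the tardbp line, within the 6-digit libraries (3 against 2), they were 0.11 for mpx and 0.12 for lyz; the lin28a and sox9b lines have 1 format each.

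Genes that reached 1 TPM in 3 libraries or more were tested on log2(TPM + 1) with limma 3.58.1 (trended empirical Bayes, two-sided, R 4.3.3), per line and in 1 fit over 24 libraries, with Benjamini-Hochberg adjustment over all genes tested and a threshold of 0.05. The labels do not say whether replicates came from separate clutches or pools, so p-values measure the spread between these samples. The fits were also run on simulated data with known changes. These were planted only in genes above a minimum mean level, with noise drawn for each gene on its own. Changes in scarcer genes and shifts shared by a whole library were not simulated. The fits of single lines missed most of the smaller changes, and that of the tardbp line missed the larger ones too. A member not called in a line may therefore still have changed. The members and the gene lists were chosen with earlier results of these data known, and the pancreas list after the pattern was seen. All members were named. From the other lists, genes called would have been named. With none called, some of small p in the smn1 and tardbp lines are given as values. None were named by p for the lin28a and sox9b lines. The 3 other macrophage genes with an unadjusted p under 0.05 by limma in the sox9b line are thus not described. The genes described library by library, such as lect2l, ncf1, npsn, mpeg1.2, il34 and csf1a, were chosen by hand and not by p. Likeness was ranked for mpx and mpeg1.1, and by an added rule for the other members, among named genes with a mean TPM of at least 1; 1 result of this ranking is not reported here. Alternatives were pseudocounts of 0.1 and 5, no low-value filter or a minimum of 5 TPM, median centring, quantile normalisation, an untrended prior, a replicate block, 1 fit over all libraries, each library left out, and, added after seeing the data, rescaling without the 3 abundant transcripts and leaving out the libraries that stand apart. No sequences were at hand for these genes on the build used.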

Additional observations from a re-analysis of the deposited data

How the results depend on the processing

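No member was called by limma under any alternative in any line, in the mean over the lines or between lines; the smallest adjusted p was 0.130, between lines, and at most 7 values there had an unadjusted p under 0.05 (at most 3 in any line or the mean). Of 790 recomputed member differences, 728 kept their direction and 62 turned, none with a size above 0.54. The replicate block called 0 members as well (smallest adjusted p 0.370 in the smn1 line) and changed no member's call. Over all lines, the correlations of same-numbered libraries ran from −0.34 to 0.38. In the lin28a line they were 0.376, 0.0539 and 0.242, each the highest of its 3TG library. In the smn1, tardbp and sox9b lines that did not hold for every library. Whether replicate numbers pair the samples could not be decided from these values. In the lin28a line 735 genes had an unadjusted p under 0.05 by limma with the block, against 349 without it. In the sox9b line 209 had one, against 239. Over all genes of the tardbp line the block called 28, against 2 without it. Under another scaling the following differences changed sign; the cause was not tested. In the tardbp line mpeg1.1 became 0.35 with median centring, 0.26 with quantile normalisation, 0.19 rescaled and 0.54 centred without tardbp 3TG 3. There coro1a became 0.41, 0.43, 0.32 and 0.40 under the same settings, spi1b 0.0584 when centred, and lcp1 0.0241 with quantile normalisation and 0.0234 when centred without tardbp 3TG 3. In the smn1 line coro1a became 0.0148 with quantile normalisation, in the sox9b line mpx −0.0577 when centred or quantile-normalised, and the mean of spi1b 0.0311 centred and 0.0114 centred without tardbp 3TG 3.

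Leaving out each library in turn, differences that changed sign ranged as follows. In the smn1 line mpx ranged from −0.037 to 0.39, spi1b from −0.11 to 0.29, coro1a from −0.25 to 0.28 and lcp1 from −0.0708 to 0.59. In the tardbp line mpx ranged from −0.21 to 0.43, lyz from −0.23 to 0.88, mpeg1.1 from −0.37 to 0.41, marco from −0.15 to 0.44, csf1ra from −0.15 to 0.45 and coro1a from −0.19 to 0.27. In the lin28a line lyz ranged from −0.49 to 0.17, csf1ra from −0.10 to 0.31 and spi1b from −0.19 to 0.24. In the sox9b line mpx ranged from −0.0399 to 0.12, lyz from −0.45 to 0.0839, marco from −0.0021 to 0.50, csf1ra from −0.0283 to 0.40, spi1b from −0.30 to 0.0909 and coro1a from −0.19 to 0.0140. In the mean spi1b ranged from −0.14 to 0.0140, coro1a from −0.0140 to 0.12 and lcp1 from −0.0367 to 0.13. The neutrophil minus macrophage difference ranged from −0.18 to 0.59 in the smn1 line, −0.19 to 0.23 in tardbp, 0.18 to 0.47 in lin28a and −0.46 to −0.02 in sox9b. With 3 libraries a group and TPM alone, changes within the intervals given are not excluded. Depth is unknown.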

Other observations

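Levels of the growth factor genes of the phagocyte lineages are given here by library. The gene of Il34, a ligand of the receptor made from csf1ra, was at 13.5 TPM in lin28a 3TG 2 and at 1.70 to 3.47 TPM in the other 5 libraries of the line, and at 9.0, 1.23 and 3.59 TPM in smn1 3TG, against 2.91, 4.32 and 7.43 TPM in smn1 2TG. The second ligand gene csf1a was at 4.94 TPM in lin28a 3TG 2, against 1.16 to 3.18 TPM in the rest of the line. Its paralog csf1b was not raised there, at 6.29 TPM, inside the 2.90 to 6.80 TPM of the rest of the line. The granulocyte factor csf3b was at 9.34 TPM in smn1 3TG 1, at 6.74 TPM in smn1 2TG 3 and at 5.37 TPM in tardbp 3TG 3, the libraries with the next highest il1b. Its receptor gene csf3r was at 2.37 TPM in lin28a 3TG 2, against 0.990 to 1.71 TPM in the rest of the line. In smn1 3TG 1, smn1 2TG 3 and tardbp 3TG 3, csf3r was at 1.73, 1.72 and 0.616 TPM, inside the range of the rest of each line.

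Other blood lists held 0 genes called by limma in any line. The erythroid genes had a median log2 difference of −0.87 in the tardbp line (10 of 10 below 0, 3 with an unadjusted p under 0.05), beside −0.45, 83.0% and 13.7% for all genes, and of −0.25 in smn1, 0.05 in lin28a and 0.04 in sox9b. Without tardbp 3TG 3, in which 6 of the 10 were lowest, the tardbp median was −0.65 with 9 of 10 below 0, beside −0.16 and 62.9% for all genes. Medians for the 5 thrombocyte genes were −0.20, −0.41, 0.10 and −0.04 in the smn1, tardbp, lin28a and sox9b lines. For lymphocyte and thymus genes they were −0.03, −0.17, −0.10 and 0.17, for blood stem cell genes 0.34, −0.45, 0.04 and −0.0039, for xanthophore genes 0.30, −0.53, −0.05 and 0.20, and for acute inflammation genes −0.17, 0.52, 1.66 and −0.07. The lin28a median of the inflammation genes was 0.46 without lin28a 3TG 2, where all 13 genes tested were highest, and the tardbp median was 0.0433 without tardbp 3TG 3.

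The peptidase gene cpa5 was placed here among the other neutrophil genes and is also one of the 18 exocrine pancreas genes. It ran with the pancreas gene ela2 over the 24 libraries (r = 0.98, as a description), so its values are not read as those of neutrophils. It lay between 0.779 and 1308 TPM, a wider range than that of mpx.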
